A study of Mus musculus with 10 samples.

Results

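Paneth cells sit at the base of small intestinal crypts and release antimicrobial proteins into the lumen. The genes described here are 8 Paneth cell products, Lyz1, Defa17, Defa22, Defa24, Mmp7, Ang4, Itln1 and Pla2g2a, which were taken by symbol from a table of 54532 genes, where all 8 were found. They were measured by RNA sequencing in 2 populations of small intestinal cells sorted from 5 litter-matched Gucy2c-GFP mice of the outbred stock CD1/ICR. The mice were 10 weeks old and carried GFP under the promoter of GUCY2C, the intestinal guanylyl cyclase receptor. From each mouse, 20000 cells with high GFP (GUCY2Chi) and 20000 cells with medium GFP (GUCY2Cmed, named Medium and also Lo in the labels) gave 1 library each, 10 libraries in all. The mice received no further treatment in the labels, and the sort was by GFP and did not select Paneth cells in either population. The study called the GUCY2Chi cells neuropod cells and the GUCY2Cmed cells bulk epithelium. In its antibody staining of dissociated cells, a majority but not all of the GUCY2Chi cells were high for synapsin 1, its neuropod marker. The comparison gives the level of Paneth cell products in each population.

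Paneth cell granules kill or restrain bacteria in complementary ways. Lysozyme cuts the bacterial cell wall, alpha-defensins open bacterial membranes, secreted phospholipase A2 digests membrane lipid, angiogenin-4 is a ribonuclease with antibacterial activity, and intelectin-1 binds microbial sugars. Matrilysin, the product of Mmp7, is the protease that cuts mouse alpha-defensin precursors into their active form. Wnt signals at the crypt base keep Paneth cells in place and direct their maturation, and Paneth cells in turn supply Wnt3, EGF and Notch ligands to the neighbouring stem cells.

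Library totals of reads assigned to genes ranged from 10903958 to 15307932. The table's gene positions lie on GRCm38, although the labels name mm9, and positions below are on GRCm38. Levels are given as cpm, counts scaled to the library total after TMM normalization, and differences as log2 fold changes, GUCY2Chi against GUCY2Cmed, from edgeR's quasi-likelihood test over 15703 genes with a threshold of 0.01 on the Benjamini-Hochberg adjusted p. The labels give the level of GUCY2C and no cell type, and marker genes are used here to describe the cells. All 16 enteroendocrine genes on a marker list were called higher in GUCY2Chi libraries, against 13.9% of all tested genes. Their sums were 40624 to 162196 cpm, against 151 to 349 cpm in GUCY2Cmed libraries. Enterocyte genes summed to 3542 to 32607 cpm in GUCY2Chi and 59281 to 79523 cpm in GUCY2Cmed libraries. Among GUCY2Chi libraries those of mice 12 and 15 stood apart, with enterocyte sums of 31668 and 32607 cpm against 3542 to 4931 cpm in mice 2, 7 and 14. In bulk RNA of this kind, fewer Paneth cells and less product RNA per cell cannot be told apart.

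The alpha-defensins are a cluster of young gene copies on chromosome 8, and their sequences decide how well reads can be assigned to one of them. The stretches shown are the last 111 bases of each coding sequence of 282 bases, positions 172 to 282, which encode the end of the protein that holds the mature peptide. They were taken from GENCODE vM1 (NCBIM37) by gene identifier, and capitals mark bases that differ from Defa24.
Defa24: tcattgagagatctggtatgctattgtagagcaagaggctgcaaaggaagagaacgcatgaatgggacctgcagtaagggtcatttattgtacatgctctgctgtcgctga
Defa17: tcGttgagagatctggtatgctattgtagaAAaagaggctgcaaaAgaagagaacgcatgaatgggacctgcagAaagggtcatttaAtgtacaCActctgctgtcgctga
Defa22: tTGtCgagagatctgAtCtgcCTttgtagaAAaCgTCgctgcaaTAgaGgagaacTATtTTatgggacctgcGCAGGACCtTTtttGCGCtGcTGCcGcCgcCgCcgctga
Over the whole coding sequence Defa17 differed from Defa24 at 12 bases (95.7% identity), whereas Defa22 differed at 58 (79.4% identity). Among the alpha-defensin coding sequences of GENCODE vM1 that were compared, the nearest relative of Defa22 was Defa21, with 2 coding differences.

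Lysozyme is likewise encoded by a pair of near copies, Lyz1 and Lyz2, of which the first is the Paneth cell form and the second the form of macrophages and other myeloid cells. Their coding sequences of 447 bases differed at 22 positions (95.1% identity). The 100 bases before the transcription start, from RefSeq on GRCm38.p6, are shown because the pair has such different read counts, with capitals where the copies differ. They lie at chr10:117292869-117292968 for Lyz1 and chr10:117282273-117282372 for Lyz2, both on the minus strand.
Lyz1: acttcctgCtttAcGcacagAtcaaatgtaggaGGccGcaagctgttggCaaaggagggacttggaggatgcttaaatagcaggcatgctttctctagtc
Lyz2: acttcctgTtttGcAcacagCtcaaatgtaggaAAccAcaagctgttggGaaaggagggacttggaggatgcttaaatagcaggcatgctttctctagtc
Of these 100 bases 8 differed, and the last 50 were identical. Against this likeness, Lyz1 had 1179740 counts over the 10 libraries and Lyz2 had 342. Of 100-base windows of the Lyz1 transcript, 97.9% occurred in no other protein-coding gene of GENCODE vM1. Of its 50-base windows, 84% did so.

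Per length, lysozyme and intelectin-1 were the most abundant of the 8 products. On the deposited FPKM scale (counts scaled by gene length and by library total), the median level over 10 libraries was 4714 for Lyz1 and 3871 for Itln1. Ang4 followed at 1087, Defa24 at 294, Mmp7 at 51.2, Defa17 at 33.6 and Pla2g2a at 28.0, and Defa22 was at 0. The order held library by library for most neighbours. Lyz1 was above Itln1 in 8 of 10 libraries, and Itln1 above Ang4, Ang4 above Defa24 and Defa24 above Mmp7 in 10 of 10. Mmp7 was above Defa17 in 9 of 10 libraries and Defa17 above Pla2g2a in 5 of 10, so that the last pair did not differ in order. The FPKM of Itln1 rested on a length of 781 bases and that of Pla2g2a on 647 bases, where the same table lists 1141 and 928 bases, but the order by cpm per kilobase of the listed length was the same. The plot of FPKM by gene shows the 10 libraries behind each median.

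**Figure D1:**
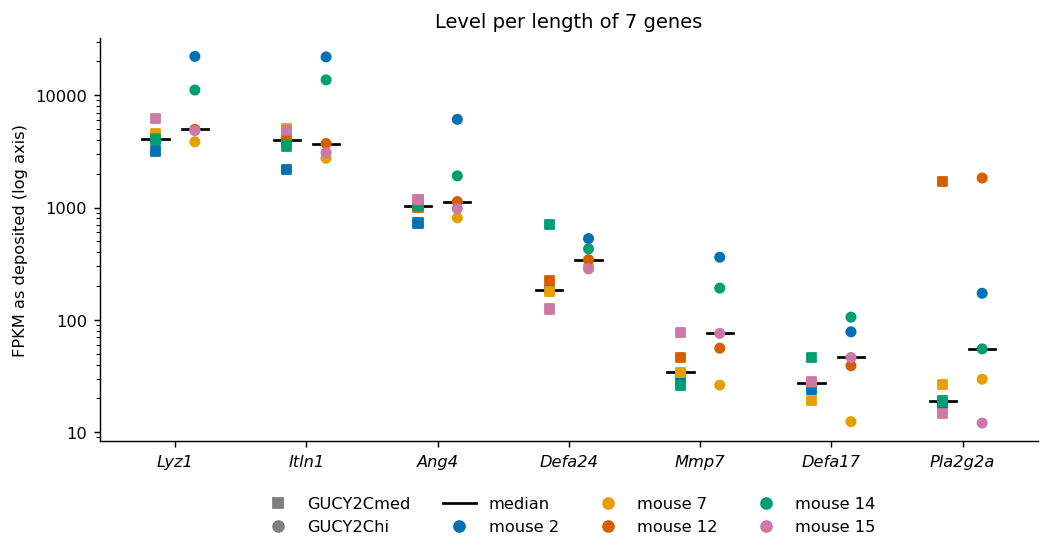
Deposited FPKM (log axis) of 7 genes in the 10 libraries, squares for GUCY2Cmed and circles for GUCY2Chi, coloured by mouse, with the median of each group as a black line; Defa22, at 0 in 9 libraries, is left out. Lyz1 and Itln1 reach 22212 and 21963 in the GUCY2Chi library of mouse 2, and Pla2g2a spans 12.1 to 1834.

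Lyz1 (ENSMUSG00000069515, chr10:117287797-117292868, minus strand) was among the most counted genes of the intestine in every library, between the 4th and the 18th by counts. It stood at 25506, 3872, 6352, 14197 and 5141 cpm in the GUCY2Chi libraries of mice 2, 7, 12, 14 and 15, and at 4118, 6153, 5674, 5689 and 9530 cpm in their GUCY2Cmed libraries. The GUCY2Chi libraries of mice 2 and 14 lay above all the others, the GUCY2Chi library of mouse 7 lay lowest of all 10, and the groups overlapped. The group means, 11014 ± 9047 and 6233 ± 1998 cpm (SD, n = 5), corresponded to a log2 difference of 0.82 (SE 0.52, 95% interval -0.32 to 1.96) that did not pass the test (edgeR, adjusted p = 0.243). An exact two-sided permutation test on log2 cpm gave p = 0.397, where 5 libraries against 5 allow no p below 0.00794. That test took the 10 libraries as independent and did not use the pairing by mouse. Without the GUCY2Chi library of mouse 2 the log2 difference was 0.28, and without both libraries of that mouse it was 0.16. Within mice, Lyz1 was 6.19 times as high in GUCY2Chi as in GUCY2Cmed cells of mouse 2, 2.50 times in mouse 14 and 1.12 times in mouse 12, but 0.629 times in mouse 7 and 0.539 times in mouse 15.

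Itln1 (ENSMUSG00000038209, chr1:171518122-171535294, minus strand) is a lectin that Paneth cells share with goblet cells. Its GUCY2Chi libraries had 15595, 1707, 2937, 10811 and 2025 cpm in mice 2, 7, 12, 14 and 15, and its GUCY2Cmed libraries had 1752, 4156, 3464, 3089 and 4607 cpm. Mice 2 and 14 were again far above the rest in GUCY2Chi cells, and the other 3 mice had less Itln1 in GUCY2Chi than in GUCY2Cmed cells. The log2 fold change was 0.95 (SE 0.62, 95% interval -0.40 to 2.31) with an adjusted p of 0.252 in edgeR, and it was 0.38 without the GUCY2Chi library of mouse 2 and 0.21 without both of its libraries. The ratio within mice ran from 8.90 in mouse 2 to 0.411 in mouse 7.

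Ang4 (ENSMUSG00000060615, chr14:51763878-51773590, minus strand) encodes the ribonuclease angiogenin-4. GUCY2Chi libraries held 3937, 457, 810, 1371 and 582 cpm in mice 2, 7, 12, 14 and 15, and GUCY2Cmed libraries held 527, 893, 786, 827 and 1017 cpm. The library of mouse 2 stood alone, 2.87 times as high as the next one, and the GUCY2Cmed libraries lay within 1.93-fold of each other. The log2 fold change of 0.82 (SE 0.53, 95% interval -0.35 to 1.99) did not pass the test (edgeR, adjusted p = 0.254), and it was 0.033 without the GUCY2Chi library of mouse 2 and -0.0907 without both of its libraries.

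Mmp7 (ENSMUSG00000018623, chr9:7692090-7699585, plus strand), the defensin-activating protease, had the largest group difference of the 7 genes tested. Its GUCY2Chi libraries stood at 351, 22.3, 60.4, 207 and 68.0 cpm in mice 2, 7, 12, 14 and 15, against 32.1, 38.9, 54.7, 31.1 and 101 cpm in GUCY2Cmed libraries. Both extremes of the range were GUCY2Chi libraries, the highest from mouse 2 and the lowest from mouse 7. The log2 fold change was 1.46 (SE 0.64, 95% interval 0.05 to 2.87), with an unadjusted p of 0.0438 and an adjusted p of 0.0949 in edgeR. With the mouse as replicate block it was 0.92 (adjusted p = 0.393), and the exact two-sided permutation test gave p = 0.238. The log2 fold change was 0.83 without the GUCY2Chi library of mouse 2, 0.69 without both libraries of that mouse and 2.49 without mice 12 and 15. Mice 2 and 14 were 10.9 and 6.65 times as high in GUCY2Chi cells, mouse 12 was at 1.11 times, and mice 7 and 15 were at 0.574 and 0.676 times.

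Defa24 (ENSMUSG00000064213, chr8:21734494-21735471, plus strand) was the most abundant of the 3 alpha-defensin genes of the group. In GUCY2Chi libraries it had 202, 101, 146, 181 and 100 cpm in mice 2, 7, 12, 14 and 15, the narrowest range of the 7 genes in that population as a ratio, 2.01-fold from lowest to highest. In GUCY2Cmed libraries it had 79.4, 79.5, 104, 331 and 63.8 cpm, so that mouse 14 was 3.19 times as high as the next library. In that library Defa17 was also the highest of the GUCY2Cmed libraries, at 20.4 cpm against 13.6 cpm in the next. Lyz1, Itln1 and Ang4 lay there within the range of the other GUCY2Cmed libraries, and Mmp7 was the lowest of them. The log2 fold change was 0.15 (SE 0.44, 95% interval -0.81 to 1.12; edgeR, adjusted p = 0.836), although 4 of 5 mice had more Defa24 in GUCY2Chi than in GUCY2Cmed cells and only mouse 14 had less. Without the GUCY2Cmed library of mouse 14 the log2 fold change was 0.84 (adjusted p = 0.0311).

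Defa17 (ENSMUSG00000060208, chr8:21655780-21656735, plus strand) was lower and rested on 65 to 550 counts per library. GUCY2Chi libraries had 28.2, 3.92, 15.7, 42.4 and 15.4 cpm in mice 2, 7, 12, 14 and 15, and GUCY2Cmed libraries had 9.83, 8.03, 12.1, 20.4 and 13.6 cpm. Mouse 14 was the highest mouse in both populations and mouse 7 the lowest in both. The log2 fold change was 0.72 (SE 0.50, 95% interval -0.36 to 1.81; edgeR, adjusted p = 0.281), and it was 0.31 without the GUCY2Chi library of mouse 14. Of 100-base windows of its transcript, 9.40% occurred in no other gene, against 100% for Defa24. Counts of Defa17 are therefore uncertain wherever reads could be split among copies. With 50-base windows the shares were 8.05% for Defa17 and 71.9% for Defa24, so Defa24 also has shorter stretches in common with other genes. The read length is not given in the sources used here. Only protein-coding transcripts of GENCODE vM1 were compared. These lacked some other alpha-defensin genes and pseudogenes, so all of these shares are upper bounds.

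Defa22 (ENSMUSG00000074443, chr8:21162277-21163249, plus strand) had 1 count in all, in the GUCY2Cmed library of mouse 15, and was not tested. The 9 other libraries were at 0, each of which allows up to 3 counts by counting error alone. Its near copy Defa21 had 3 counts. By the same comparison, with the same limit, windows of 100 bases found in no other gene made up 59.7% of the Defa22 transcript. For windows of 50 bases the share was 25.1%. Both shares were larger than those of Defa17, which had 2290 counts. How reads with several alignments were counted is not given in the sources used here, and its part in these counts was not tested. The plot of counts against the 100-base windows places Defa22 and Defa17 among the other alpha-defensins.

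**Figure D2:**
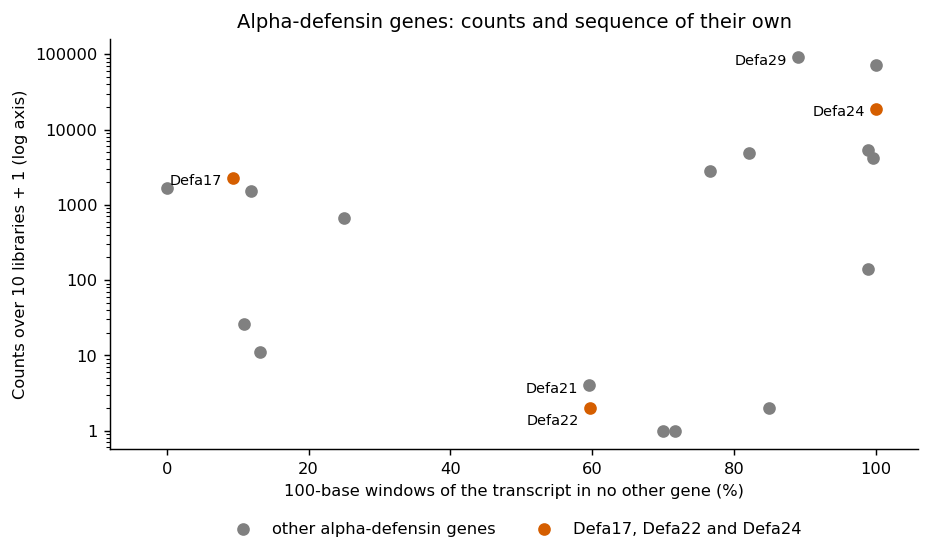
Counts summed over 10 libraries plus 1 (log axis) of alpha-defensin genes with a GENCODE vM1 transcript, against the percentage of 100-base windows of the transcript that occur in no other protein-coding gene of that annotation. Defa17, Defa22 and Defa24 are in orange. Defa22 and Defa21 lie near 60% with 1 and 3 counts, and Defa17 lies at 9.40% with 2290 counts.

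Pla2g2a (ENSMUSG00000058908, chr4:138831857-138835186, plus strand), the secreted phospholipase known in mouse genetics as the Mom1 modifier of intestinal tumours, differed by mouse. Its GUCY2Chi libraries had 102, 15.3, 1200, 36.0 and 6.55 cpm in mice 2, 7, 12, 14 and 15, and its GUCY2Cmed libraries had 11.7, 18.1, 1223, 13.7 and 11.6 cpm. Both libraries of mouse 12 stood apart at nearly the same level, 46.8 times the median of the other mice in GUCY2Chi cells and 96.4 times in GUCY2Cmed cells. The lower of them was 11.8 times as high as the highest library of any other mouse. The fit without a term for the mouse had little precision for this gene (log2 fold change 0.09, SE 1.63, 95% interval -3.48 to 3.65; edgeR, adjusted p = 0.977), and with the mouse as replicate block the difference was 0.62 (SE 0.58, adjusted p = 0.460). Without the GUCY2Chi library of mouse 12 the log2 fold change was -2.68, and without the GUCY2Cmed library of mouse 12 it was 4.34; neither passed the test. Apart from mouse 12, mice 2 and 14 had 8.68 and 2.63 times as much Pla2g2a in GUCY2Chi as in GUCY2Cmed cells, and mice 7 and 15 had 0.841 and 0.567 times. Pla2g2a overlaps Pla2g5, on the opposite strand, which had 340 counts over all libraries.

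**Figure D3:**
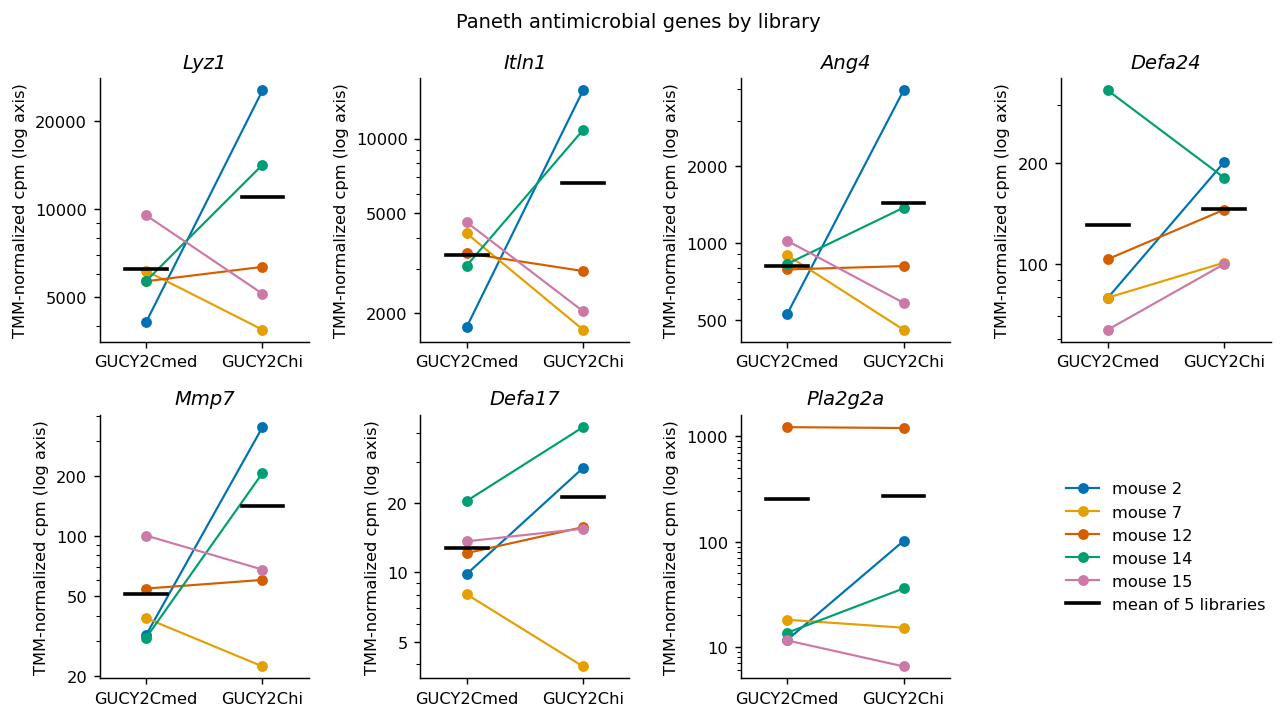
TMM-normalized cpm (log axes, each panel on its own range) of 7 genes in GUCY2Cmed and GUCY2Chi libraries, with a line joining the libraries of each mouse and a black bar at the mean of 5 libraries. Lines of mice 2 and 14 slope up and those of mice 7 and 15 slope down for Lyz1, Itln1, Ang4 and Mmp7, whereas mouse 12 lies near 1200 cpm in both groups for Pla2g2a.

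None of the 7 tested genes was called higher and none lower in GUCY2Chi cells (edgeR, adjusted p under 0.01), where 13.9% of all tested genes were called higher and 8.79% lower. At an unadjusted p under 0.05, edgeR counted 1 of them, Mmp7, limma-voom counted 0 of 7 and DESeq2 counted 1 of the 6 to which it gave a p. For 0 of 7 genes did the libraries of one group all lie above those of the other, as they did for 29.9% of tested genes. A set of 7 genes, several of which varied together, is too small to read these counts against the shares of all tested genes. The median log2 fold change of the 7 was 0.82, against 0.09 over all tested genes. Without both libraries of mouse 2 these medians were 0.16 and 0.16. Without mice 12 and 15, whose GUCY2Chi libraries held more enterocyte transcripts, they were 1.44 and 0.05, with log2 fold changes of 1.44 for Lyz1, 1.63 for Itln1, 1.35 for Ang4 and 1.80 for Pla2g2a, and 0 of 7 genes were called. The part of the enterocyte transcripts in these values was not tested. The 95% intervals included a difference of 0 for all but Mmp7, whose lower bound was 0.05, and a log2 difference of 1 for all 7.

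The direction of the difference varied between the library pairs of the 5 mice. Each mouse gave 1 library per group, so mouse, sort and library cannot be told apart. All 7 genes were higher in the GUCY2Chi than in the GUCY2Cmed cells of mouse 2, and 6 of 7 in mouse 14, Defa24 being the exception. In mouse 7 only Defa24 was higher, in mouse 15 only Defa24 and Defa17, and in mouse 12 all but Itln1 and Pla2g2a. The median log2 ratio of the 7 genes was 2.90 in mouse 2, 1.32 in mouse 14, 0.14 in mouse 12, -0.77 in mouse 15 and -0.79 in mouse 7. Over all tested genes the corresponding medians lay between -0.03 and 0.16 in these mice. As a share of all counts, the 8 genes took 5.03% of the GUCY2Chi library of mouse 2 and 2.66% of that of mouse 14, while the remaining 8 libraries lay between 0.640% and 1.26%.

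**Figure D4:**
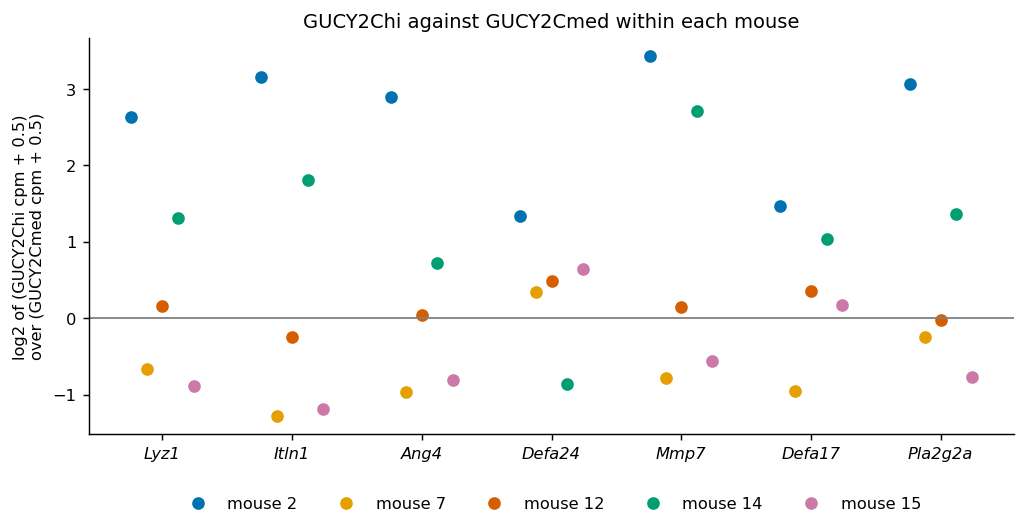
Log2 ratio of GUCY2Chi to GUCY2Cmed cpm within each mouse (0.5 cpm added to both) for 7 genes, with 1 point per mouse and a line at 0. Mouse 2 lies above 0 for all 7 genes, from 1.34 for Defa24 to 3.43 for Mmp7, and mouse 7 lies below 0 for all but Defa24.

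Other cell types moved in part with these libraries. Goblet cell genes summed to 23536 cpm in the GUCY2Chi library of mouse 2, the highest of the 10, but to 3098 cpm in that of mouse 14, the lowest. All 10 goblet cell genes were tested and 0 were called, where 13.9% of all tested genes were called higher and 8.79% lower. With 10 genes this difference is too small to read. The remaining 8 goblet sums lay between 4976 and 13325 cpm. Their part in the levels of Lyz1, Itln1, Ang4 and Mmp7 was not tested. Of 12 myeloid genes 6 were tested and 1 was called higher, near the 13.9% of all tested genes. This was C1qa, a complement subunit, at 47.7 ± 37.8 cpm in GUCY2Chi and 0.69 ± 0.50 cpm in GUCY2Cmed cells (SD, n = 5; log2 fold change 6.10; edgeR, adjusted p = 1.3e-04; higher in 5 of 5 mice), which made up most of a myeloid sum of 24.5 to 109 cpm in GUCY2Chi against 2.73 to 8.94 cpm in GUCY2Cmed libraries. The other myeloid genes reached at most 3.09 cpm in any library, and S100a8 and S100a9 were at 0 in all. Lyz2 stood at 3.50 ± 2.82 cpm in GUCY2Chi and 1.26 ± 0.47 cpm in GUCY2Cmed cells (SD, n = 5).

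The spread between the libraries of the mice was wide for most of these genes in GUCY2Chi cells. The SD of log2 cpm over the 5 GUCY2Chi libraries was 1.12 for Lyz1, 1.24 for Defa17, 1.56 for Mmp7, 1.23 for Ang4 and 1.46 for Itln1. Each of these exceeded the SD of more than 92% of the 9977 tested genes with at least 5 cpm on average, whose median SD was 0.38. In GUCY2Cmed cells the same genes had SDs of 0.36 to 0.70, against a median of 0.32. Defa24 had the reverse pattern, 0.47 in GUCY2Chi and 0.94 in GUCY2Cmed cells, the latter through mouse 14. In all, 5 of 7 genes had the larger SD in GUCY2Chi cells, as did 62.5% of the 9977 genes.

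Lyz1, Itln1, Ang4 and Mmp7 varied together from library to library. Pearson's r of log2 cpm over the 10 libraries was 0.88 to 0.97 for the 6 pairs among them, and 0.89 to 0.97 after the group means were removed. For each of the 4 genes the GUCY2Chi libraries of mice 2 and 14 were the first and the second, the GUCY2Cmed library of mouse 15 was the third, and the GUCY2Chi library of mouse 7 was the last. The ratio of Lyz1 to Ang4 counts stayed between 6.48 and 10.4 over the 10 libraries, and that of Lyz1 to Itln1 between 1.31 and 2.54. The ratio of Lyz1 to Mmp7 ranged more widely, from 68.7 to 183. The points share libraries and depth, and these r values are descriptions.

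The alpha-defensins followed Lyz1 less closely. Defa17 and Defa24 had r of 0.26 to 0.79 with those 4 genes, and the ratio of Lyz1 to Defa24 counts ran from 17.2 in the GUCY2Cmed library of mouse 14 to 150 in that of mouse 15. Within GUCY2Chi libraries r between Lyz1 and Defa24 was 0.94, and within GUCY2Cmed libraries it was -0.24 (5 libraries each). Between Defa17 and Defa24 r was 0.61 over all libraries, 0.80 within GUCY2Chi and 0.77 within GUCY2Cmed libraries. Pla2g2a had r of 0.17 to 0.24 with the other 6 genes, and the ratio of Lyz1 to Pla2g2a counts spanned 4.64 to 825.

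**Figure D5:**
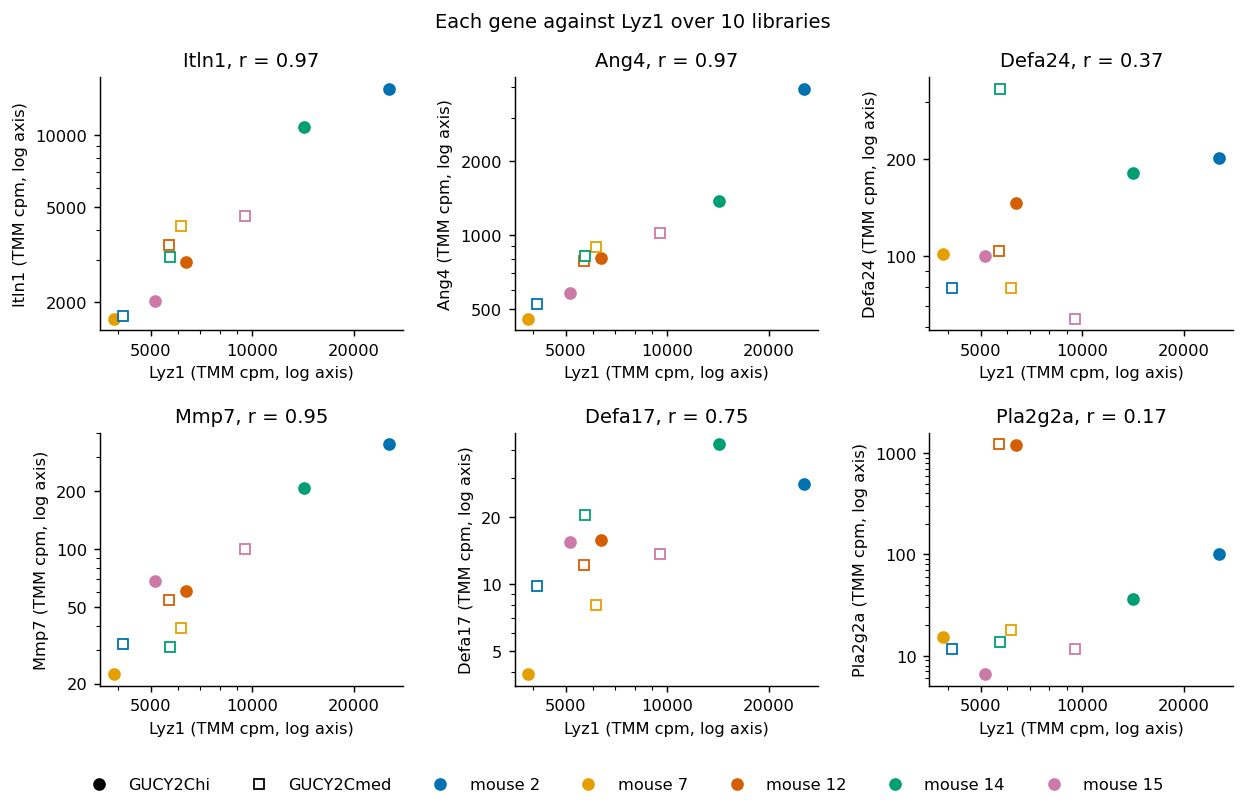
The other genes against Lyz1 (TMM cpm, both axes logarithmic) in 10 libraries, circles for GUCY2Chi and open squares for GUCY2Cmed, coloured by mouse, with Pearson's r of log2 cpm above each panel. Itln1, Ang4 and Mmp7 line up with Lyz1 (r of 0.95 to 0.97), the GUCY2Cmed library of mouse 14 lies off the trend for Defa24, and both libraries of mouse 12 do so for Pla2g2a.

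The genes most like the 7 products in their pattern over the libraries included other Paneth cell products. Among tested genes with at least 5 cpm on average, those with the highest r to the mean standardised log2 cpm of the 7 over 10 libraries were Defa31 (0.92), Gm15292 (0.90), St7l (0.90), Bcl7c (0.88), Pnliprp2 (0.88), Prps1l3 (0.87), Fbxl15 (0.87), Clps (0.86), Urod (0.86) and Fah (0.86). Defa31 and Gm15292 are alpha-defensin genes, and the Defa31 transcript had 0% of 100-base windows of its own, so its counts are uncertain. Pnliprp2 and Clps encode a lipase-related protein and colipase. With the group means removed the leading genes were Rnh1 (0.97), Defa31 (0.95), St7l (0.92), Clps (0.92), Bckdha (0.92), Urod (0.91), Gm15292 (0.91), Wbp1 (0.91), Ctsh (0.90) and Commd7 (0.89). Rnh1 encodes the inhibitor that binds ribonucleases of the angiogenin family, and it was not among the 10 genes listed before the group means were removed. Both lists were picked as the highest r among all tested genes with at least 5 cpm on average, over only 10 libraries. Values of this size can arise from such a selection alone. How many would do so was not tested, so the lists are descriptions.

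For Pla2g2a the pattern of a single mouse was rare in the transcriptome. Over the 9977 genes, 4 had both libraries of 1 mouse at least 8 times as high as every library of the other mice, all 4 in mouse 12. They were Rps3a3, Rps3a2, Rpsa-ps10 and Pla2g2a. The first of these are copies of ribosomal protein genes. For mice 2, 7, 14 and 15 there were 0 such genes.

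Of 39 other alpha-defensin genes and pseudogenes in the table, 24 had at most 3 counts in every library, 21 of them none at all. Of the 10 that were tested, 0 were called higher and 0 lower, where 13.9% and 8.79% of all tested genes were, a difference that 10 genes are too few to read. Their median log2 fold change was 0.23. The 3 most abundant were Defa29, at 706 ± 498 cpm in GUCY2Chi and 654 ± 264 cpm in GUCY2Cmed cells, AY761184, at 538 ± 461 and 543 ± 240 cpm, and Gm15292, at 42.5 ± 20.1 and 35.4 ± 13.2 cpm (SD, n = 5). Summed over the 39 genes, the GUCY2Chi library of mouse 14 was the highest at 3083 cpm, the GUCY2Chi library of mouse 2 reached 1558 cpm, and the GUCY2Cmed libraries ranged from 543 to 1756 cpm.

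Of 15 other Paneth cell products found in the table, 12 were tested, of which 2 were called higher and 1 lower in GUCY2Chi cells, close to the 13.9% and 8.79% of all tested genes. Ang, an angiogenin gene related to Ang4, rose from 11.6 ± 2.62 to 41.9 ± 10.2 cpm (log2 fold change 1.85; edgeR, adjusted p = 1.7e-04; higher in 5 of 5 mice). It overlaps Rnase4 on the same strand, which had 70671 counts against 3766 for Ang, so reads of shared exons could be counted for either. Habp2, a secreted serine protease, rose from 17.5 ± 7.05 to 119 ± 77.8 cpm (log2 fold change 2.76; edgeR, adjusted p = 0.00130), a call lost with the mouse as replicate block in edgeR (log2 fold change 2.54, adjusted p = 0.0118) but not in limma-voom (adjusted p = 0.00478), and lost without both libraries of mouse 14 (adjusted p = 0.0105). Dmbt1, a mucosal scavenger receptor protein that binds bacteria, fell from 518 ± 143 to 108 ± 88.7 cpm (log2 fold change -2.27; edgeR, adjusted p = 0.00571). That call was lost with the block in edgeR (log2 fold change -2.62, adjusted p = 0.0131) but not in limma-voom (adjusted p = 0.00499). It was also lost without both libraries of mouse 2 (adjusted p = 0.0275) or mouse 14 (adjusted p = 0.0399), and without any 1 of 8 of the 10 libraries. The most abundant genes of this list, the antibacterial lectins Reg3b (log2 fold change -1.85; edgeR, adjusted p = 0.198) and Reg3g (-2.34; adjusted p = 0.0305) and the pentraxin Mptx2 (1.01; adjusted p = 0.411), did not pass the test. Reg3b and Reg3g were lower in GUCY2Chi cells in 5 of 5 mice, and with the mouse as replicate block in edgeR their adjusted p were 0.0169 and 0.0144. Clps and Pnliprp2 had adjusted p of 0.0237 and 0.0328 in edgeR. Summed over this list, the GUCY2Chi libraries of mice 12 and 15 had 6960 and 5835 cpm. Those of mice 2, 7 and 14 had 2930, 1149 and 3690 cpm. Mice 12 and 15 also had the highest enterocyte sums among GUCY2Chi libraries. The part of enterocyte transcripts in the genes of this list was not tested.

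Among 16 genes of Paneth cell fate and niche function, 3 were called higher and 1 lower, again near the shares of all tested genes (13.9% and 8.79%). Wnt3, the Wnt ligand that Paneth cells supply, rose from 2.63 ± 0.80 to 64.6 ± 20.9 cpm (log2 fold change 4.61; edgeR, adjusted p = 4.8e-06). Cd24a, a surface glycoprotein used to sort Paneth cells that also marks enteroendocrine cells, rose from 94.1 ± 28.2 to 999 ± 554 cpm (log2 fold change 3.41; edgeR, adjusted p = 1.16e-04). Dll4, a Notch ligand, rose from 7.38 ± 1.61 to 32.7 ± 16.2 cpm (log2 fold change 2.15; edgeR, adjusted p = 0.00169), a call lost without both libraries of mouse 14 (adjusted p = 0.0122). All 3 were higher in 5 of 5 mice, including mice 7 and 15, in which Lyz1, Itln1, Ang4 and Mmp7 were lower. Fzd5, the Wnt receptor needed for Paneth cell maturation, was called lower (8.17 ± 3.87 to 3.30 ± 0.85 cpm, log2 fold change -1.31; edgeR, adjusted p = 0.00960), a call lost with the block in edgeR (adjusted p = 0.0372) and in limma-voom (adjusted p = 0.0233) and without any 1 of the 10 libraries. Xbp1, a secretory stress transcription factor and the most abundant gene of the list, had a log2 fold change of 0.38 (edgeR, adjusted p = 0.189). Dll1, the other Notch ligand of the list, went the other way from Dll4. Its log2 fold change was -0.74 (edgeR, adjusted p = 0.100), and it was higher in GUCY2Chi cells in 0 of 5 mice. The transcription factors Sox9, Atoh1, Gfi1, Spdef and Bhlha15 had log2 fold changes of -0.17, 0.28, -0.29, -0.05 and 0.91 and were not called.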

How the data were processed

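The sequencing provider aligned paired-end reads with STAR, and the authors deposited unnormalized read counts per gene and FPKM values for 10 libraries. Counter, annotation and treatment of reads with several alignments are not given in the sources used here. The submitters' processing notes name limma 3.40.6 and edgeR 3.26.8. A further 10 columns of per-sample values, and the authors' own fold changes and p-values, were not used.

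Analyses used R 4.3.3 and edgeR 4.0.16. The filter required over 0.5 cpm in 3 or more libraries and passed 15703 of 54532 genes. TMM factors were applied and quasi-likelihood tests were fitted without a mouse term. A check on simulated data used a common dispersion and no mouse effect, and its results are not given here. Alternatives were limma-voom (limma 3.58.1), DESeq2 1.42.0, a replicate block, other factors and filters, and left-out libraries. Permutation tests used log2(cpm + 0.5) and did not use the pairing by mouse. Tables were made in Python 3.11.15.

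Both groups came from the same 5 mice, and the label numbers were taken as the mice. Deviations of same-numbered libraries from their group means correlated at -0.22 to 0.27. Only for the GUCY2Chi library of mouse 12 was the GUCY2Cmed library of the same number the closest. Replicate libraries of a group differed by more than sampling noise. The members and lists were chosen with earlier results of these data known. Genes named outside the 8 members are those past the threshold or among the 3 most abundant of the other alpha-defensin, Paneth product and niche lists, and the 10 most like the members; a few others, such as the mouse 12 genes, were chosen after their values were seen. Windows were compared over protein-coding transcripts of GENCODE vM1. RefSeq promoters were found for 5 of the 8 members.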

Additional observations from a re-analysis of the deposited data

Results flagged for a closer look

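Of 14 groups of 5 libraries tested for a sample far from the others by Dixon's criterion on cpm, 4 had one. The criterion's rate of about 1 in 20 by chance holds for normally distributed values. That was not checked for cpm, which was not put on a log scale here, so no excess over chance is read from this count. Defa24 stood at 331 cpm in the GUCY2Cmed library of mouse 14, with the other GUCY2Cmed libraries between 63.8 and 104 cpm. Ang4 stood at 3937 cpm in the GUCY2Chi library of mouse 2, with the others between 457 and 1371 cpm. Pla2g2a stood at 1200 cpm in the GUCY2Chi library of mouse 12, with the others between 6.55 and 102 cpm, and at 1223 cpm in the GUCY2Cmed library of the same mouse, with the others between 11.6 and 18.1 cpm. The groups tested share mice and genes that vary together.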

How the results depend on the processing

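No member was called in either direction under any of the 23 alternatives, which cover leaving out each library and, chosen after seeing the data, both libraries of mouse 2, 12 or 14. Over all genes the 2186 calls higher became 1294 with the replicate block in edgeR, 1194 without mouse 2 and 1177 without mouse 14, and 1636 to 2534 without single libraries. The 1381 calls lower became 2235 with DESeq2, 779 with the replicate block in edgeR, 557 by library size without TMM, 151 without mouse 2, 659 without mouse 12 and 139 without mouse 14, and 512 to 1609 without single libraries. By library size without TMM the median log2 fold change of all genes moved from 0.09 to 0.39 and that of the members from 0.82 to 1.09.

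Directions turned for 3 members, none of them called. Defa24 was at -0.0793 without mouse 2 and -0.0299 without mice 12 and 15, and between -0.0183 and 0.84 without single libraries. Ang4 was at -0.0907 without mouse 2. Pla2g2a was at -0.00886 without mouse 2, and between -2.68 and 4.34 without single libraries. The cause was not tested, except that each construction uses fewer libraries. Lyz1, Itln1, Mmp7 and Defa17 kept a positive sign throughout, and adjusted p of Mmp7 ranged from 0.0362 to 0.428. With the replicate block Lyz1 had a log2 fold change of 0.47 (edgeR, adjusted p = 0.606), and the block changed no call of a member. The permutation tests of the members stayed on the same side of 0.05 with a pseudocount of 0.05 and without TMM. The lowest count of a tested member in any library was 65. Wide intervals leave differences of the size given in the report undecided with 5 mice.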
